A study of Sus scrofa with 6 samples.

Results

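Retinol carriers, retinoid binding proteins, the retinal dehydrogenase ALDH1A1 and the retinoid receptors were examined in preovulatory follicles of 3 Chinese Taihu and 3 Large White sows. The members were RBP4, CRABP1, CRABP2, RARA, ALDH1A1 and RXRA, and every probe set whose single gene symbol in the array's probe table is one of these was taken. This gave 8 probe sets for 5 of the 6 genes, out of 23935 probe sets that are not controls. RBP4, ALDH1A1 and RXRA have 2 probe sets each, called A1 and S1 after the ends of their array identifiers, and CRABP2 and RARA have 1 each, both ending in S1. No probe set of the table carries the symbol CRABP1, the other cellular retinoic acid binding protein, which was not analysed here.

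The sows were multiparous and cycling. Each received 1000 IU of PMSG, a gonadotropin that acts like FSH, and 80 h later 500 IU of hCG, which acts on the LH receptor. They were killed 30 to 38 h after hCG, and the RNA of healthy follicles over 5 mm from 1 sow was put on 1 Affymetrix porcine array. The Chinese sows are called Chinese Erhualian in the labels, a strain of the Taihu group, and the breeds were kept on separate farms, so breed and farm cannot be told apart. The values are normalized signal intensities on a linear scale. In whole follicles, fewer cells of a type and less RNA per cell cannot be told apart.

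Retinol circulates bound to RBP4, which is itself carried by transthyretin (TTR). Inside the cell retinol is oxidized to retinal and then, by the ALDH1A enzymes, to retinoic acid. CRABP1 and CRABP2 hold retinoic acid in the cytosol, and CRABP2 passes it to the receptors. RARA binds retinoic acid and acts on DNA as a dimer with RXRA, which also pairs with other nuclear receptors. CYP26A1 degrades retinoic acid. In the ovary, retinoids are known for their part in the entry of germ cells into meiosis and in follicle growth.

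The array of Chinese Taihu sow 1 stood apart from the rest. The Pearson correlation of its log2 signals with those of the other 5 arrays, taken across 19196 dependent probe sets, ranged from 0.834 to 0.887. Each of the other arrays reached 0.955 to 0.967 with its closest array. All 11 measured markers of surface epithelium and oviduct had their highest signal in this sow. Their summed signal was 50942 there, 1976 and 2195 in the other Chinese Taihu sows, and 1968 to 9023 in Large White sows. None of the 11 was at 0, the lowest signal being 43.5. The summed signal of 13 granulosa cell markers in Chinese Taihu sow 1 was 4329, against 23149 to 31976 elsewhere. That of 7 theca interna markers was 1005 against 6930 to 42749. Not every marker followed these sums, since 2 of the 13 granulosa and 1 of the 7 theca interna markers were highest in Chinese Taihu sow 1. Every difference between the breeds was therefore also computed without this sow.

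No member probe set met the threshold for a difference between the breeds. A probe set was tested with limma where its signal exceeded 50 on at least 3 of the 6 arrays, and all 8 did. An adjusted p below 0.05 (limma, Benjamini and Hochberg over 19196 probe sets) was reached by 0 of the 8 members, and by 0.0208% of all tested probe sets. An unadjusted p of at most 0.05 was also reached by 0 of 8, against 3.86% of all. The methods' t-test, 2-sided, gave 0 at either threshold too, paired or unpaired. The signals of the breeds overlapped in all 8 probe sets, while 9.1% of all tested probe sets had none in common between the ranges of the breeds. The log2 difference (throughout the Chinese Taihu mean less the Large White mean) was above 0 in 5 member probe sets and below 0 in 3. Its median was 0.15, against 0.00188 over all tested probe sets, and the median of the members was 0.0795 without Chinese Taihu sow 2. The number of arrays limits the precision, and with 3 sows a breed the smallest exact permutation p is 0.1. The 8 members had exact permutation p-values of 0.2 to 0.9.

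**Figure D1:**
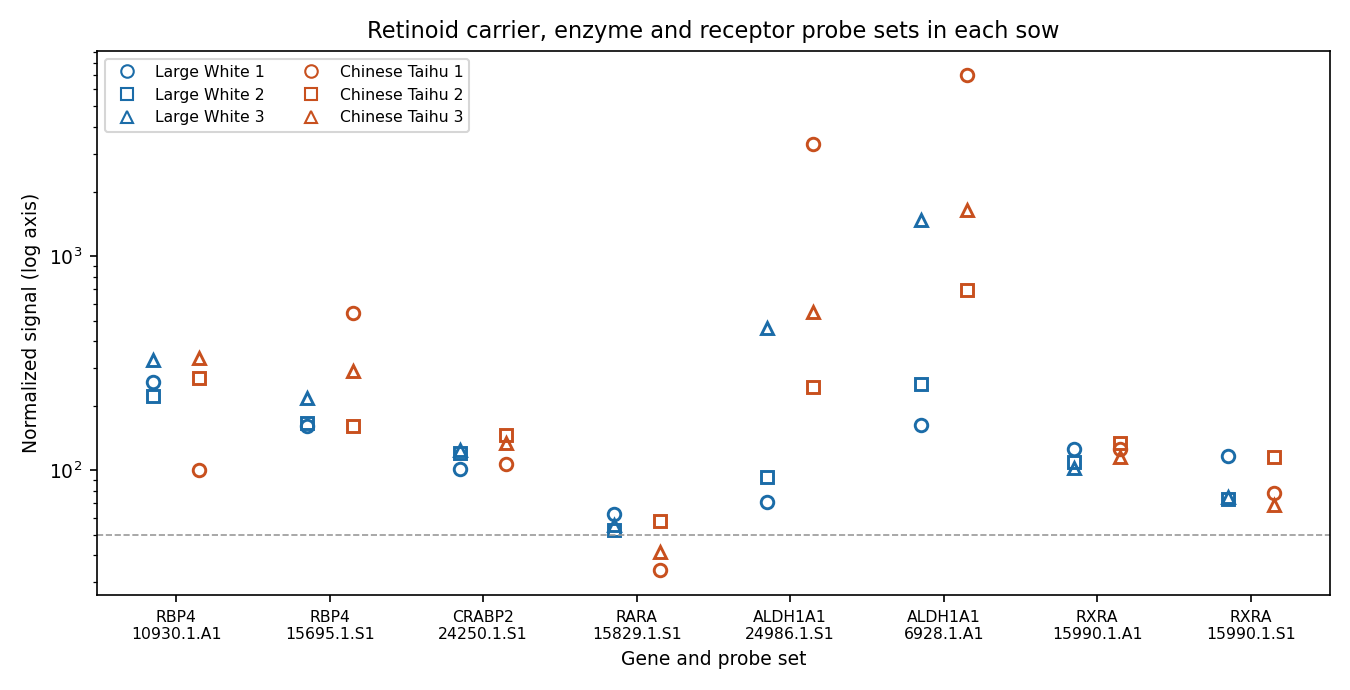
Normalized signal (y axis, log axis) of the 8 probe sets (x axis), with 1 point per sow, 3 Large White and 3 Chinese Taihu. The dashed line is a signal of 50. ALDH1A1 spans the widest range, with Chinese Taihu sow 1 highest on both of its probe sets (3353 and 6972), while RBP4 places that sow lowest on one probe set (100) and highest on the other (542).

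RBP4 is the plasma carrier of retinol and was measured by 2 probe sets, both assigned to the same transcript record. On the A1 probe set the normalized signal was 259, 223 and 328 in Large White sows, against 100, 268 and 333 in Chinese Taihu sows. Chinese Taihu sow 1 lay well below the other 5 sows. Mean signals were 270 ± 53.3 (SD, n = 3) and 234 ± 120, a log2 difference of -0.36 (95% interval -1.48 to 0.76, limma adjusted p = 0.993). On the S1 probe set the signal was 161, 167 and 217 in Large White sows, against 542, 161 and 290 in Chinese Taihu sows. Here the same sow was the highest of all. Mean signals were 182 ± 30.7 and 331 ± 194, a log2 difference of 0.71 (95% interval -0.35 to 1.76, adjusted p = 0.993).

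The RBP4 probe sets pointed in opposite directions, and their ratio stood apart on 1 array. The log2 ratio of S1 to A1 lay between -0.73 and -0.20 in 5 sows and was 2.43 in Chinese Taihu sow 1. Without that sow both log2 differences were above 0, at 0.17 (SE 0.25) and 0.26 (SE 0.31). Without Chinese Taihu sow 2, S1 no longer overlapped between the breeds, with a log2 difference of 1.14 and an unadjusted p of 0.0164 (limma, adjusted p = 0.708). In that fit 1225 of all 19196 probe sets had an unadjusted p of at most 0.05, and the share without overlap was not counted. Whether A1 or S1 reports the RBP4 transcript more faithfully in Chinese Taihu sow 1 was not tested.

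Other proteins that carry retinol or retinoic acid were described from a list of 8 symbols, of which 6 have a probe set and 5 were tested. None had an unadjusted p of at most 0.05, and 2 of the 5 log2 differences were above 0. TTR, the partner of RBP4 in plasma, a choice made after seeing the values, lay at 73.4 to 103 in Large White sows, against 73.9 to 88.6 in Chinese Taihu sows. FABP5, which carries fatty acids and retinoic acid to the receptor PPARD, was the brightest of the group. Its signal was 1204, 6490 and 1552 in Large White sows, against 1253, 974 and 1233 in Chinese Taihu sows, so 1 Large White sow stood above the other 5. That sow also had the highest signal of 6 of the 7 measured leukocyte markers, with a summed signal of 11292 against 1977 to 3861 elsewhere, and their part in the FABP5 value was not tested.

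RBP5, a cellular retinol binding protein chosen after its values were seen, had signals of 80.9, 99.5 and 84.8 in Large White sows, against 50.1, 167 and 155 in Chinese Taihu sows. Chinese Taihu sow 1 was the lowest of the 6 and the other Chinese Taihu sows were the highest. The log2 difference was 0.31 (SE 0.47). Without Chinese Taihu sow 1 it was 0.87 (SE 0.18), with an unadjusted p of 0.00287 and an adjusted p of 0.986 (limma). In that fit 703 of all 19196 probe sets had an unadjusted p of at most 0.05. The log2 difference of RBP5 was 0.0013 without Chinese Taihu sow 2 and 0.056 without Chinese Taihu sow 3.

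CRABP2, which delivers retinoic acid to the nuclear receptors, varied little. Its signal was 102, 121 and 125 in Large White sows, against 107, 146 and 134 in Chinese Taihu sows. The lowest sow of each breed lay near 100 and the ranges overlapped. Mean signals were 116 ± 12.5 (SD, n = 3) and 129 ± 19.9, and the log2 difference was 0.15 (95% interval -0.29 to 0.59, adjusted p = 0.993). Without Chinese Taihu sow 1, whose value was the lower end of its breed, the log2 difference was 0.28. It was 0.059 without Large White sow 1 and 0.056 without Chinese Taihu sow 2. The SD within the breeds was 0.20 on the log2 scale, larger than in 27.2% of the tested probe sets.

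ALDH1A1, a cytosolic enzyme that oxidizes retinal to retinoic acid, was the most variable member. On the A1 probe set its signal was 163, 254 and 1477 in Large White sows, against 6972, 691 and 1635 in Chinese Taihu sows. The highest sow stood 42.7 times above the lowest. Chinese Taihu sow 1 was far above all others, and Large White sow 3 lay among the Chinese Taihu sows. On the S1 probe set the signal was 71.3, 93.1 and 464 in Large White sows, against 3353, 245 and 550 in Chinese Taihu sows, a 47.0-fold range. Both probe sets put the 6 sows in the same order.

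The mean ALDH1A1 signals on A1 were 631 ± 733 (SD, n = 3) for Large White and 3099 ± 3387 for Chinese Taihu, a ratio of 4.91. The log2 difference was 2.34 (SE 1.10, 95% interval -0.32 to 4.99). On S1 the means were 209 ± 221 and 1383 ± 1713, with a log2 difference of 2.40 (SE 1.12, 95% interval -0.30 to 5.10). The unadjusted limma p was 0.0753 and 0.0729, and the adjusted p was 0.993 for both. The exact permutation p was 0.2 for each. The SD within the breeds, 1.68 and 1.71 on the log2 scale, exceeded that of 98.7% and 98.8% of the tested probe sets.

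Single sows moved the ALDH1A1 difference. Without Chinese Taihu sow 1 it was 1.43 (SE 0.98) and 1.34 (SE 0.86) on the log2 scale. Without Large White sow 3 it was 3.29 and 3.23 (unadjusted p = 0.0195 and 0.0316, adjusted p = 0.932 for both, limma). Without Chinese Taihu sow 2 the values were 3.10 and 3.22 (unadjusted p = 0.0360 and 0.0302, adjusted p = 0.708). The breeds did not overlap in either of these last cases, and the share of all probe sets without overlap was not counted there. At that unadjusted level stood 918 of all 19196 probe sets without Large White sow 3 and 1225 without Chinese Taihu sow 2. The mean stayed higher in Chinese Taihu sows in each of these cases.

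**Figure D2:**
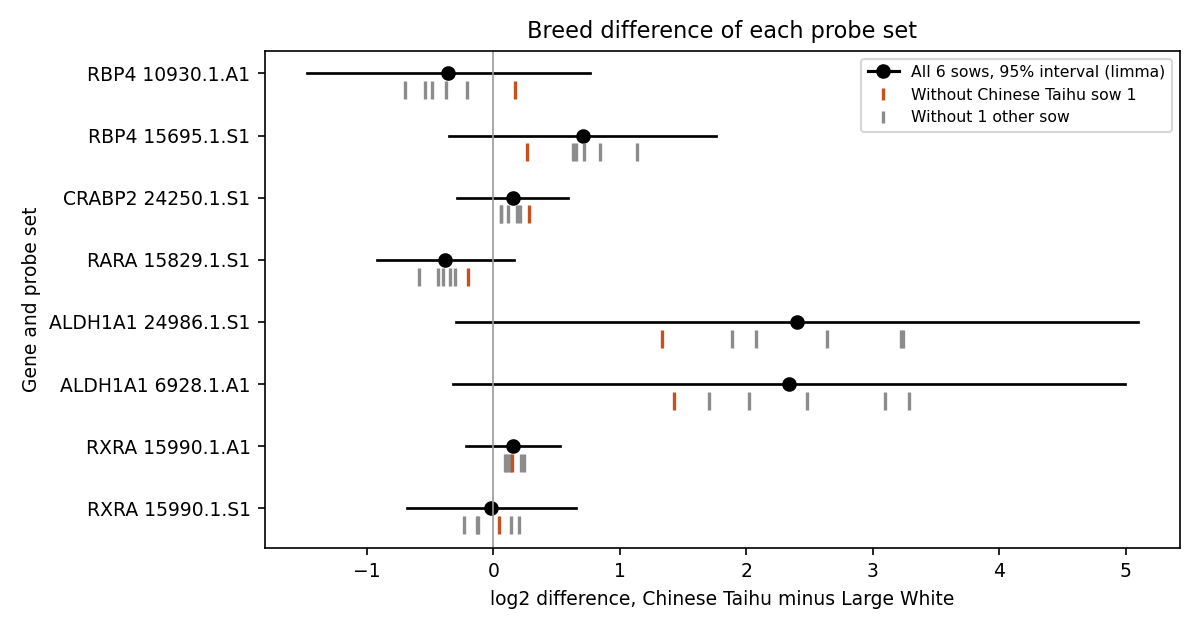
Log2 difference between the breeds (x axis, Chinese Taihu minus Large White) for each probe set (y axis), as black points with 95% intervals from limma. Ticks below each point give the value with 1 sow left out, in orange for Chinese Taihu sow 1. Every interval includes 0, and both ALDH1A1 values are the largest (2.40 and 2.34) and fall to 1.34 and 1.43 without Chinese Taihu sow 1.

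ALDH1A1 and the 11 epithelial markers were both highest in Chinese Taihu sow 1. EPCAM, which joins epithelial cells to each other and was chosen after its values were seen, had signals of 140, 489 and 1653 in Large White sows, against 7761, 768 and 727 in Chinese Taihu sows. Like ALDH1A1, EPCAM was highest in Chinese Taihu sow 1 and lowest in Large White sows 1 and 2. Among the other markers, only OVGP1 also had its lowest signals in these Large White sows. CDH1, CLDN3, CLDN7, KRT8, KRT18, KRT19 and WFDC2 were lowest in Chinese Taihu sow 2 or 3. CLDN4 and MUC1 were lowest in Large White sow 2, with Chinese Taihu sow 3 next. The summed signal of the markers was 9023 in Large White sow 3, where ALDH1A1 was at 1477 on its A1 probe set. In the other 4 sows the sum was 1968 to 2202, and ALDH1A1 was 1635 in Chinese Taihu sow 3 (sum 2195) and 254 in Large White sow 2 (sum 2202). The part of epithelial cells in the ALDH1A1 difference was not tested.

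**Figure D3:**
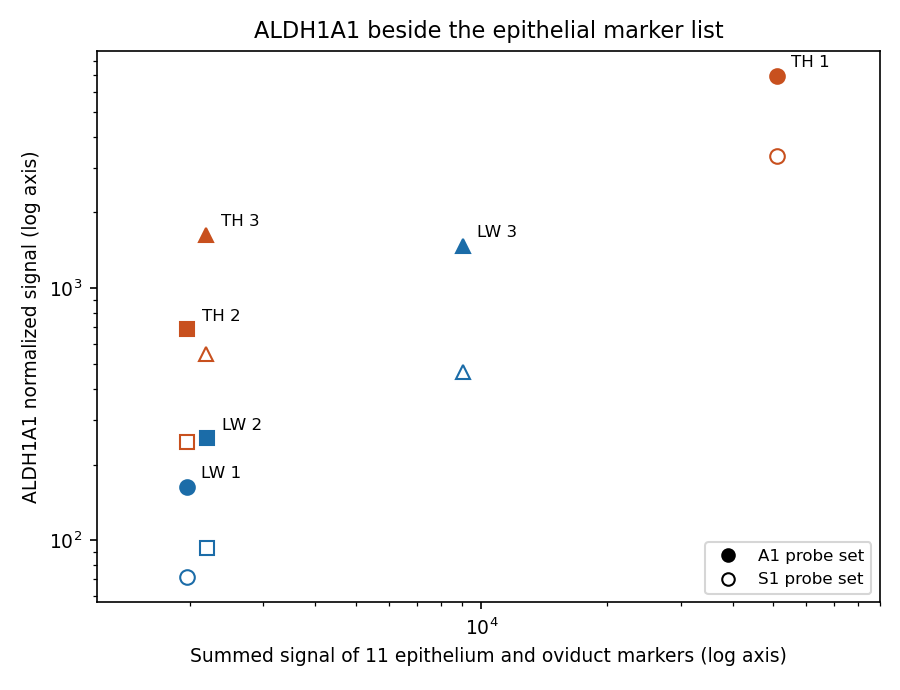
ALDH1A1 signal (y axis, log axis) against the summed signal of the 11 markers of surface epithelium and oviduct (x axis, log axis) in each sow. Filled points are its A1 and open points its S1 probe set. Chinese Taihu sow 1 lies at the top right (50942 and 6972), while sows with marker sums of 1968 to 2202 span ALDH1A1 signals of 163 to 1635 on A1 and 71.3 to 550 on S1.

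Other enzymes that oxidize retinol or reduce retinal were taken from a list of 16 symbols, of which 3 have a probe set. All 3 were tested, none had an unadjusted p of at most 0.05 and with all 6 sows the 3 log2 differences were below 0. RDH11, which reduces retinal to retinol, was the brightest. Its signal was 4711, 2644 and 3107 in Large White sows, against 523, 6362 and 3395 in Chinese Taihu sows. Chinese Taihu sow 1 lay far below the others. The log2 difference was -0.59 (SE 0.89), and without Chinese Taihu sow 1 it turned to 0.46 (SE 0.37). DHRS4, a peroxisomal retinal reductase chosen after its values were seen, had signals of 2345, 355 and 1226 in Large White sows, against 229, 1067 and 137 in Chinese Taihu sows. These ranges overlapped, with a log2 difference of -1.64 (SE 0.96, adjusted p = 0.993). It was -2.39 without Large White sow 2 (unadjusted p = 0.0451, adjusted p = 0.9998) and -2.51 without Chinese Taihu sow 2 (unadjusted p = 0.0253, adjusted p = 0.708, limma). It was -1.03 without Large White sow 1 and also -1.03 without Chinese Taihu sow 3, with unadjusted p of 0.355 and 0.349. Without Chinese Taihu sow 1 it was -1.40 (SE 1.10). An unadjusted p of at most 0.05 was reached by 373 of all 19196 probe sets without Large White sow 2 and by 1225 without Chinese Taihu sow 2.

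Of 7 symbols for enzymes of retinyl esters and carotenoids, 3 were tested, with a median log2 difference of -0.035 and none at an unadjusted p of at most 0.05. DGAT1, an acyltransferase that can esterify retinol, was the brightest. It had signals of 668 to 1037 in Large White sows, against 723 to 833 in Chinese Taihu sows. Of 3 symbols for clearing enzymes, CYP26A1 has a probe set and was likewise chosen after its values were seen. Its signal was 32.6 to 42.1 in Large White sows, against 39.9 to 47.8 in Chinese Taihu sows, below 50 on all 6 arrays, so it was not tested.

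RARA, the alpha receptor of retinoic acid, lay close to the level of the filter. Its signal was 62.6, 52.3 and 55.3 in Large White sows, against 34.1, 58.0 and 41.5 in Chinese Taihu sows. All 3 Large White arrays and 1 of the 3 Chinese Taihu arrays exceeded 50. The 2 lowest signals came from Chinese Taihu sows, but Chinese Taihu sow 2 lay within the Large White range. Mean signals were 56.7 ± 5.27 (SD, n = 3) and 44.6 ± 12.2, and the log2 difference was -0.38 (95% interval -0.92 to 0.16, adjusted p = 0.993). It was -0.20 without Chinese Taihu sow 1 and -0.59 without Chinese Taihu sow 2, when the breeds no longer overlapped (unadjusted p = 0.0178, adjusted p = 0.708, limma). In that last fit 1225 of all 19196 probe sets had an unadjusted p of at most 0.05, and the share without overlap was not counted.

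RXRA, the common partner of RARA and other nuclear receptors, was measured by 2 probe sets assigned to the same transcript record. On the A1 probe set the signal was 126, 109 and 103 in Large White sows, against 126, 135 and 115 in Chinese Taihu sows. This was the least variable member, with an SD within the breeds of 0.13 on the log2 scale, larger than in 10.01% of the tested probe sets. The log2 difference was 0.16 (95% interval -0.22 to 0.53, adjusted p = 0.993). It was 0.15 without Chinese Taihu sow 1, 0.24 without Large White sow 1, 0.094 without Large White sow 3 and 0.10 without Chinese Taihu sow 2. On the S1 probe set the signal was 117, 73.7 and 74.7 in Large White sows, against 78.5, 115 and 68.7 in Chinese Taihu sows. One sow of each breed stood above the other 4, and the log2 difference was -0.017 (95% interval -0.69 to 0.65, adjusted p = 0.9997). Without Chinese Taihu sow 1 it was 0.044.

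The sows high on the S1 probe set of RXRA, Large White sow 1 and Chinese Taihu sow 2, also had the highest summed theca interna signal, 36758 and 42749 against 1005 to 13198 in the other 4. RDH11 was highest in the same sows. The single theca interna markers, named after their values were seen, did not all follow the sum. STAR, CYP11A1, HSD3B1 and CYP17A1 each had their 2 highest signals in these sows. INSL3 was 1121 in Large White sow 1, against 1275 and 1725 in Large White sows 2 and 3. LHCGR was 79.9 there, against 181 and 129, and ANPEP was highest in Chinese Taihu sow 1. The part of theca cells in these RXRA and RDH11 values was not tested.

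Among 5 other receptor symbols, 4 were tested, 0 had an unadjusted p of at most 0.05 and 3 had a log2 difference above 0. RXRB, the beta form of the partner receptor, was the brightest and lay at 547 to 568 in Large White sows, against 534 to 569 in Chinese Taihu sows. RARB, a receptor that is itself induced by retinoic acid, was chosen after its values were seen. It had signals of 231, 203 and 256 in Large White sows, against 328, 262 and 244 in Chinese Taihu sows, with a log2 difference of 0.27 (SE 0.19, adjusted p = 0.993), which was 0.14 without Chinese Taihu sow 1. Of 9 symbols for corepressors and coactivators 3 were tested, none at an unadjusted p of at most 0.05. NCOR1, the brightest of them, silences targets of receptors without ligand. Its signal was 1974 to 2439 in Large White sows, against 1672 to 2518 in Chinese Taihu sows.

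**Figure D4:**
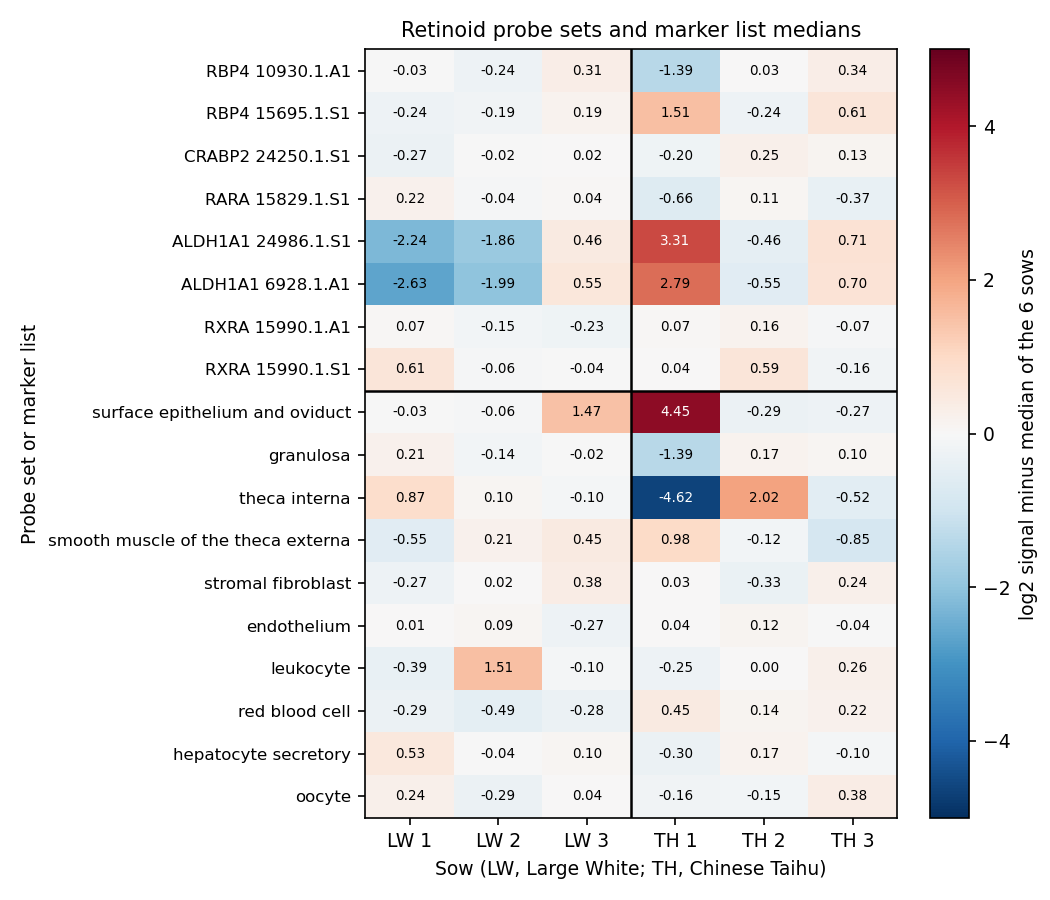
Log2 signal minus the median of the 6 sows for the 8 member probe sets (upper block) and, for 10 cell type marker lists, the median of that value over the list (lower block), with 1 column per sow. Chinese Taihu sow 1 has the extreme values of ALDH1A1 (3.31 and 2.79), the epithelium and oviduct list (4.45) and the theca interna list (-4.62).

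Genes known to respond to retinoic acid were taken from a list of 12 symbols, of which 6 were tested and 0 reached an unadjusted p of at most 0.05. RARRES1, a membrane protein induced by retinoic acid, was the brightest. Its signal was 7237, 8600 and 8768 in Large White sows, against 275, 3117 and 8651 in Chinese Taihu sows. Chinese Taihu sow 3 lay within the Large White range, and the other Chinese Taihu sows lay below it. The log2 difference was -2.07 (SE 1.18, adjusted p = 0.993), with -0.65 without Chinese Taihu sow 1 and -3.14 without Chinese Taihu sow 3 (unadjusted p = 0.0215, adjusted p = 0.993, limma). In the fit without Chinese Taihu sow 3, 822 of all 19196 probe sets had an unadjusted p of at most 0.05. The 2 other RARRES1 probe sets had their lowest signal in Chinese Taihu sow 1, 155 and 228. The granulosa and theca interna sums were also lowest in that sow (4329 and 1005). Both sums were highest in Chinese Taihu sow 2 (31976 and 42749). There RDH11 was at its highest (6362), but RARRES1 was 3117, below the Large White range. The part of granulosa and theca cells in the RARRES1 and RDH11 values was not tested.

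The homeobox genes MEIS1 and MEIS2, which can be induced by retinoic acid, were chosen after their values were seen. MEIS1 reached 3515 in Chinese Taihu sow 1, with 267 to 969 elsewhere. MEIS2 had 2326 there and 466 to 910 elsewhere. The second MEIS1 probe set had 1116 in that sow and 92.7 to 326 elsewhere, but the second MEIS2 probe set was nearly level, at 96.2 there and 65.1 to 85.2 elsewhere. The epithelium and oviduct sum was also highest in that sow (50942) and next highest in Large White sow 3 (9023). Large White sow 3 was second for the brighter probe set of both genes. The median log2 deviation of the smooth muscle markers of the theca externa had the same 2 highest sows (0.98 and 0.45). Their summed signal was highest in Large White sow 3, at 17538, with 17346 in Chinese Taihu sow 1. The part of either cell type in these values was not tested. Without Chinese Taihu sow 1 the log2 difference of MEIS1 turned from 0.87 to -0.13 and that of MEIS2 went from 0.66 to 0.038. RARRES2, which encodes the chemoattractant chemerin, was chosen in the same way and had 3121 to 4921 in Large White sows, against 3322 to 6314 in Chinese Taihu sows. Over the whole pathway list, 27 genes have a probe set and 24 were tested. None of the 24 had an unadjusted p of at most 0.05 (limma), against 3.86% of all tested probe sets. None had ranges that did not overlap, against 9.1% of all, and the median log2 difference was -0.024. These counts rest on the brightest probe set of each gene. The second RARB probe set, not above 50 on any array and not tested, had ranges without overlap. It lay at 31.0 to 38.03 in Large White sows, against 38.08 to 45.3 in Chinese Taihu sows.

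**Figure D5:**
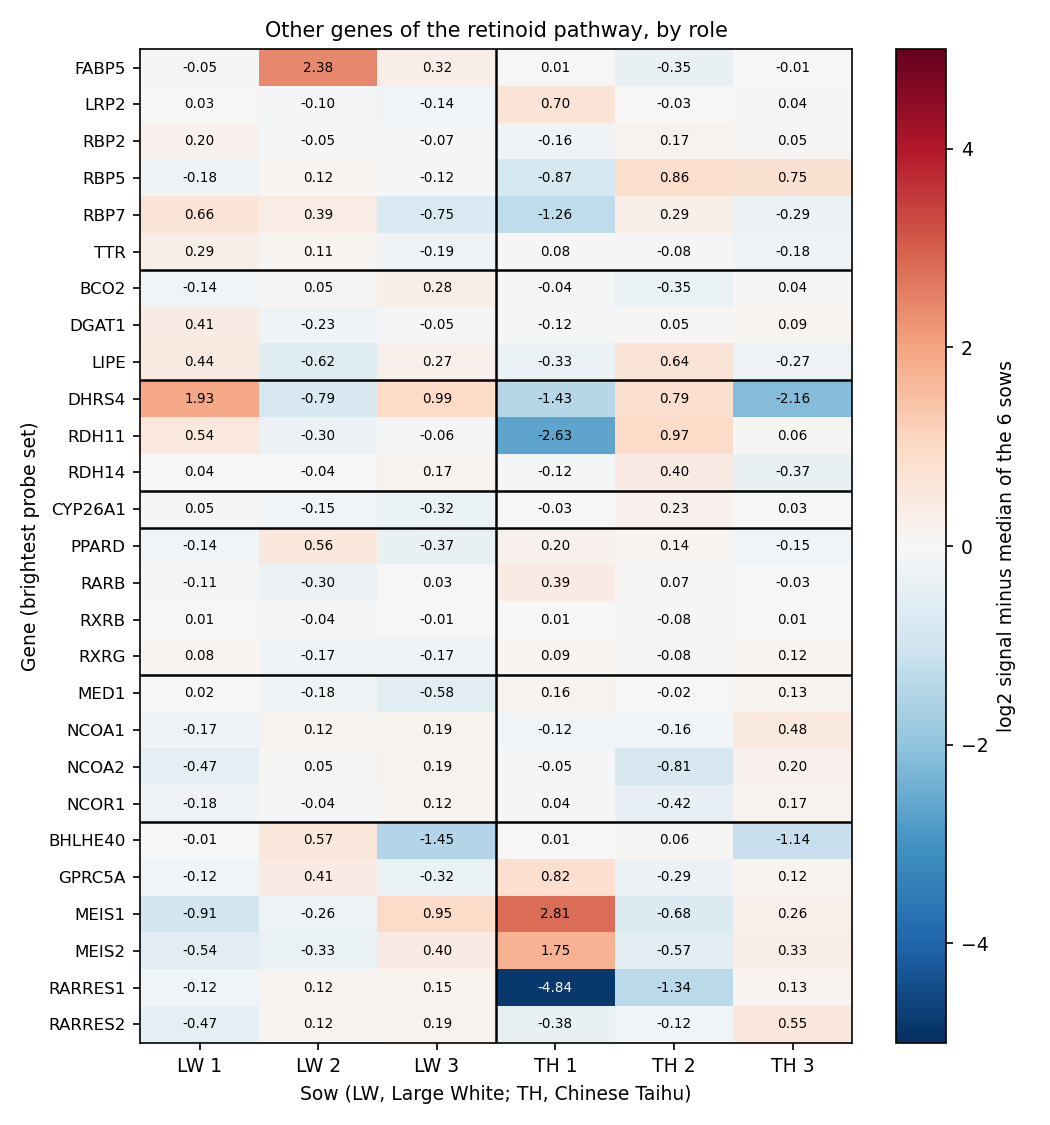
Log2 signal minus the median of the 6 sows for 27 other genes of the retinoid pathway (y axis, brightest probe set of each), with 1 column per sow. Lines separate carriers, ester and carotenoid enzymes, redox enzymes, clearance, receptors, coregulators and responsive genes from top to bottom. RARRES1 is lowest (-4.84) and MEIS1 highest (2.81) in Chinese Taihu sow 1, and FABP5 is highest in Large White sow 2 (2.38).

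The transcripts whose profile over the 6 sows was most like that of each member were found by Pearson r of the log2 signals, given as a description. These 6 points include the array that stood apart. ALDH1A1 had 152 other tested probe sets at r of 0.95 or above (0.792% of 19195), RBP4 on its S1 probe set 192, RARA 102, RXRA on its A1 probe set 40 and CRABP2 17. The closest to ALDH1A1 were EIF3M, a subunit of a translation initiation factor (0.990), MYO6, a myosin motor (0.989), and COX7C, a subunit of cytochrome c oxidase (0.989). EIF3M ran from 467 in Large White sow 1 to 1772 in Chinese Taihu sow 1. Thus it spanned a far narrower range than ALDH1A1.

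Closest to RARA were DLGAP5, a protein of the mitotic spindle (r = 0.997), USP5, a deubiquitinase (0.996), and HBEGF, a growth factor of the EGF family (0.995). RBP4 on its S1 probe set had MYCBP2, a ubiquitin ligase (0.997), CLUAP1, a protein of cilium transport (0.992), and IGBP1, a binding partner of protein phosphatase 2A (0.990). CLUAP1 had signals of 92.0, 85.0 and 109 in Large White sows, against 222, 85.3 and 126 in Chinese Taihu sows. Chinese Taihu sow 1 was highest, as on that RBP4 probe set. No such genes were sought for the A1 probe set of RBP4, on which that sow was lowest. For CRABP2 they were B4GALT4, a galactosyltransferase (0.975), MCFD2, a cargo adaptor of the early secretory pathway (0.969), and PAFAH1B2 (0.966). For RXRA they were FAM13C (0.986), OGFOD1, a prolyl hydroxylase (0.985), and the transcription factor POU2F2 (0.985).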

How the data were processed

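Follicle RNA (5 µg total RNA per sow) of 3 Large White and 3 Chinese Taihu sows was measured on 1 porcine Affymetrix array each, and the labels gave the breed. The authors made the deposited signal intensity of each probe set with MAS5 (version 2.3.1 in the submitters' processing notes), scaled every array to a common target and applied the invariant set normalization of dChip. The scaling hides any difference in total RNA per follicle.

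Of 24123 probe sets, 188 controls were left out. Log2 was taken with a floor of 1. Those exceeding 50 on 3 or more arrays (19196) entered a 2-sided breed comparison by limma 3.58.1 (R 4.3.3, moderated by eBayes with trend), adjusted by Benjamini-Hochberg over all of them. Exact permutation tests were 2-sided. Other steps used Python 3.11.15, pandas 2.3.3, numpy 2.4.6, scipy 1.17.1 and matplotlib 3.10.9. The fit was tested on simulated data. The brightest probe set with 1 symbol stood for a gene of a list. All 8 member probe sets kept their symbol in the RefSeq gene table, as did 26 of 27 pathway genes. Genes named are all members, pathway genes with an unadjusted p of at most 0.05, the brightest tested gene of each pathway group and the 3 genes with the highest r for each member. Any other is marked in the text as a later choice. The members and lists were chosen with earlier results of these data known. No sequences were used here. Alternatives were 2 normalizations (quantile, median), filters of 0 and 100, an offset of 16, weights per array, a prior variance without trend, a replicate block, the methods' t-test and each array left out.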

Additional observations from a re-analysis of the deposited data

How the results depend on the processing

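The number of arrays and low signals (RARA near 50) limit what could be seen. The count of member probe sets at an adjusted p below 0.05 was 0 under every alternative run. At an unadjusted p of at most 0.05 the member count was 2 with array weights (both ALDH1A1) and 0 to 4 with 1 array left out. The pathway count was 0 to 1 with 1 array left out. Over all probe sets, the adjusted calls were 11 with array weights, 0 with the replicate block, 0 with the methods' t-test (paired or not), and 2 to 4 with 1 array left out. The count at an unadjusted p was 1303 with array weights and 373 to 1225 with 1 array left out, the ends being Large White sow 2 and Chinese Taihu sow 2. A filter at 100 leaves out RARA and an RXRA probe set, and the median log2 difference of the remaining members was 0.43. The median over all 8 was 0.0795 to 0.22 with 1 array left out. The sign turned for RXRA on its S1 probe set with array weights (0.020) and with single arrays left out (-0.23 to 0.20), and for RBP4 on its A1 probe set without Chinese Taihu sow 1 (-0.70 to 0.17 over all arrays left out). The cause was not tested. All other log2 differences of members kept their sign. Deviations of sows with the same number from the mean of their breed had r of -0.17, -0.14 and 0.27 over probe sets. With only 3 sows in each mean, these values cannot decide whether the numbers pair the sows. The highest r, 0.51, was between Large White sow 1 and Chinese Taihu sow 2, so not every sow was closest to its own number. The replicate block changed no call of a member.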
